A study of Mus musculus with 4 samples.

Results

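Monocytes named Infl_Mono in the deposited annotation were compared with monocytes named Monocyte_1 inside each of 4 melanomas. These names were carried by 2475 and 8762 cells, together 11237 of the 33368 annotated cells, which had been sorted as CD45+. For every gene the unique molecular identifiers (UMIs, which count each captured transcript once) were summed over the cells of 1 name in 1 tumour, so that each gene had 8 sums and 4 paired differences. YUMM1.7OVA melanoma cells had been placed in Rag2-/- mice, which make no T or B cells of their own, OT-1 T cells (specific for an ovalbumin peptide) were given as adoptive cell therapy (ACT) on day 7, and live CD45+ cells were sorted on day 10, 72 h after the transfer. By the labels the tumours differed in the injected cancer cells. NTT cells were naive to targeted therapy, RTT cells were resistant to it and had been kept in the BRAF inhibitor dabrafenib in culture, RTT_ROSA26 cells were RTT cells with a guide to the ROSA26 locus as control, and RTT_PTGS12KO cells were RTT cells in which Ptgs1 and Ptgs2, the genes of both cyclooxygenases, had been knocked out. The knockout therefore lay in the cancer cells and not in the monocytes described here. Each group was 1 sample, and the labels give 1 tumour per condition where the study's legends describe pooled tumours, which the sources used here do not settle. Each sample is called a tumour here.

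Classical monocytes are recruited through the chemokine receptor Ccr2, carry Ly6C on their surface, and become macrophages or antigen-presenting cells in inflamed tissue. Type I interferons signal through Ifnar1 and Ifnar2 to a complex that holds Stat2 and Irf9 and binds interferon-stimulated response elements (ISREs) before antiviral genes. Interferon gamma acts mainly through gamma-activated sites (GAS) and raises Ciita, the master regulator of MHC class II, as well as Cxcl9.

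The names had been given by clustering the expression of these same cells together with cells of 2 other experiments, so a gene that differs between them may be a gene that separated them. The adjusted p-values below therefore measure how alike the 4 tumours were in a difference that the clustering helped to set, and are no evidence that the names are separate cell types. Numbers of cells are not a result for the same reason. NTT gave 1616 Infl_Mono and 4977 Monocyte_1 cells, RTT gave 138 and 384, RTT_ROSA26 gave 86 and 54, and RTT_PTGS12KO gave 635 and 3347. Both names made up 79.8% of the annotated cells of NTT, 6.55% of those of RTT, 2.05% of those of RTT_ROSA26 and 38.7% of those of RTT_PTGS12KO. The sums held between 412344 and 39632698 UMIs, and those of RTT_ROSA26 were the shallowest. Only 4 of 11232 barcode sequences of these monocytes occurred in more than 1 tumour.

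Markers of the monocyte class (12 genes, among them Ly6c2, Ccr2 and Vcan) summed to between 20858 and 32281 CPM (counts per 1000000 UMIs of the sum) in Infl_Mono and to between 12797 and 17641 CPM in Monocyte_1. The sum was higher in Infl_Mono in 4 of 4 tumours. An exact permutation test over the 4 pairs (two-sided) gave p = 0.13, the smallest p that 4 pairs allow, and an adjusted p of 0.6 over 12 marker lists. The label held less well in RTT. There Infl_Mono held 29373 CPM of the 12 macrophage markers (Apoe, C1qa, Mrc1 and others), more than its 20858 CPM of monocyte markers, against 13858 CPM of macrophage markers in Monocyte_1. In NTT, RTT_ROSA26 and RTT_PTGS12KO the macrophage markers summed to 6366, 13140 and 4547 CPM in Infl_Mono and to 7053, 10089 and 8338 CPM in Monocyte_1. Neutrophil markers summed to between 383 and 855 CPM in Infl_Mono and between 265 and 434 CPM in Monocyte_1. T cell markers stayed at or below 1.57 CPM and melanoma markers at or below 28.9 CPM in every sum. Without the 25% of cells of each name and tumour that were richest in macrophage markers, an alternative chosen after seeing the data, the RTT sum of Infl_Mono held 11663 CPM of macrophage and 23662 CPM of monocyte markers, the first being lower by the choice of cells. Values without these cells are given below where they bear on a result.

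Sequences are shown for the ISRE and GAS motifs because the genes that differed most include many interferon targets. The promoters (250 bases before to 50 bases after each RefSeq transcription start, GRCm38.p6) were searched on both strands for the ISRE core, which is GAAA, any 2 bases and GAAA, and for the GAS core TTCNNNGAA. Of the 10 called genes with the highest difference among those of at least 50 CPM and 1 sign in all tumours, 9 had a promoter in the table and 3 of these (Rsad2, Ifit3 and Ifit1) held the ISRE core, and 3 (Ifit2, Chil3 and Isg20) held the GAS core. Of the 10 lowest by the same rule, 7 had a promoter, 1 of which (Gbp2b) held the ISRE core and 0 the GAS core. Across all 32851 promoters the shares were 3.44% and 8.30%, and 3.99% and 9.55% of the 27025 genes with a promoter held the cores. The windows below run 5′ to 3′ on the strand of the gene, with the core in capitals. They lie at chr12:26456543-26456592 (Rsad2, minus strand), chr19:34583353-34583436 (Ifit3, plus strand), chr19:34640765-34640833 (Ifit1, plus strand), chr3:142594690-142594739 (Gbp2b, plus strand), chr5:92349073-92349122 (Cxcl10, minus strand, shown in addition because its level is compared with that of Cxcl9 below and chosen after its values were seen) and chr3:106167708-106167756 (Chil3, minus strand, GAS core).
Rsad2: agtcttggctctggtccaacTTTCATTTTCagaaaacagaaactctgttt
Ifit3: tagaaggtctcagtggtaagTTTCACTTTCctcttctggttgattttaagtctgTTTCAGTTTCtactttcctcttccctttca
Ifit1: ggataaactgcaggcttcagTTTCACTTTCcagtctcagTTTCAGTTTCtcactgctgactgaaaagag
Gbp2b: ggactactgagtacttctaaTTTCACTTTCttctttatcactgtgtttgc
Cxcl10: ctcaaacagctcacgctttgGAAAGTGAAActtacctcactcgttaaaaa
Chil3: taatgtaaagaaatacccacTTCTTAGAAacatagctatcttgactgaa

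The ISRE cores began 120 bases before the start of Rsad2, 156 and 122 bases before Ifit3, 104 and 85 bases before Ifit1, 137 bases before Gbp2b and 213 bases before Cxcl10. Rsad2, Ifit3, Ifit1 and Gbp2b carry the core on the opposite strand, so that in the windows printed it reads as TTTC, any 2 bases and TTTC. No ISRE or GAS core was found in the promoter of Cxcl9 within this window, which says only that these letters are absent from it. Among all genes that were tested and had a promoter, 4.95% held the ISRE core. The share was 14.7% (76 of 518) among genes called higher in Infl_Mono and 3.31% (11 of 332) among genes called lower. For the GAS core the shares were 8.10% of tested genes, 10.4% (54 of 518) of those called higher and 5.42% (18 of 332) of those called lower. By list, 16 of 30 antiviral effectors, 9 of 11 Ifi200 genes and 5 of 5 guanylate-binding protein genes with a promoter held the ISRE core, against 1 of 9 MHC class II genes. The GAS core was held by 8, 1, 2 and 1 of these genes, list by list in the same order. A match is a description of the sequence and no measure of binding.

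Of 6409 genes with a mean of at least 10 CPM over the 8 sums, 640 were higher and 391 lower in Infl_Mono at an adjusted p under 0.05 (edgeR quasi-likelihood test with the tumour as block, Benjamini-Hochberg adjustment), which is 9.99% and 6.1% of the genes tested and 16.1% together. The difference is given throughout as the log2 of Infl_Mono over Monocyte_1. Its median over all genes was -0.01. Large differences lay mostly on the higher side: 152 of the called genes were over 1 and 26 over 2, while 22 were under -1 and 0 under -2. The sign was the same in all 4 tumours for 953 called genes (92.4% of those called) and for 40.3% of all genes tested. Scaled by total UMIs in place of TMM factors, 525 genes were higher and 516 lower, so that the share of calls on the higher side went from 62.1% to 50.4%. Leaving out RTT_PTGS12KO left 274 higher and 45 lower, leaving out NTT left 338 and 139, leaving out RTT left 471 and 176, and leaving out RTT_ROSA26 left 507 and 223. In the plot of every gene tested the antiviral effectors have a higher median than the other 3 lists it marks, although the lists overlap.

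**Figure D1:**
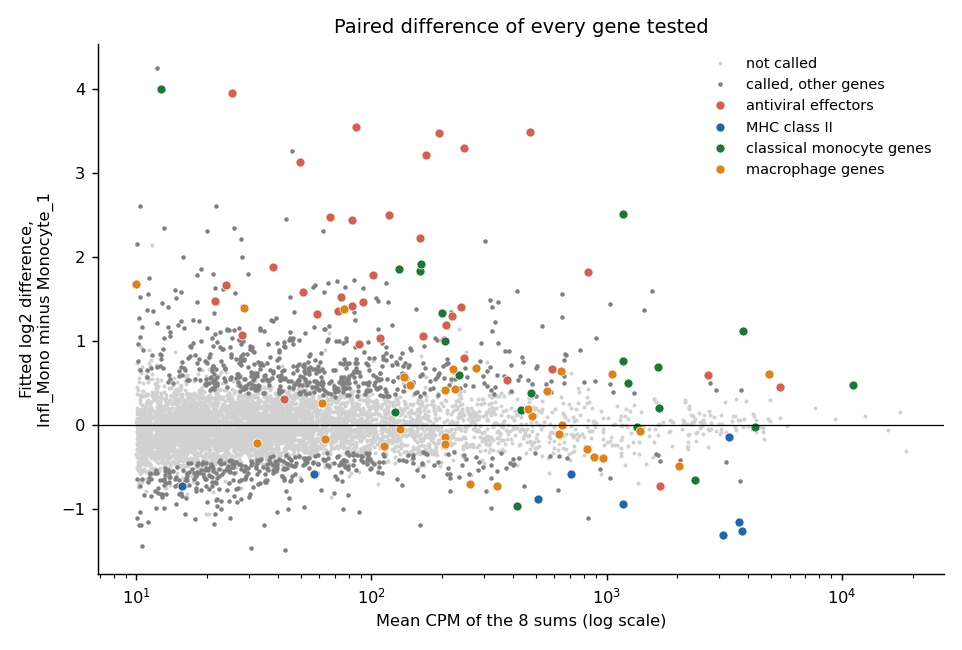
Fitted log2 difference between Infl_Mono and Monocyte_1 (vertical axis) against the mean CPM of the 8 sums (horizontal axis, log scale) for the 6409 genes tested. Pale grey points were not called, dark grey points were called, and coloured points are the members of 4 gene lists. Antiviral effectors have a median of 1.47 and MHC class II genes of -0.88, while macrophage genes lie on both sides of 0.

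The antiviral effectors were the group with the most calls. Of 37 members tested, 34 were higher in Infl_Mono and 0 lower, where 9.99% of all genes were called higher. The median of the list was 1.47 against -0.01 for all genes, and 1.25, 1.77, 1.20 and 1.25 in NTT, RTT, RTT_ROSA26 and RTT_PTGS12KO. Without the cells richest in macrophage markers 34 were called higher and 0 lower, at a median of 1.25. The 3 members that did not pass the test were Ifitm1, Ifitm2 and Ifitm3, membrane proteins that block virus entry. In total the list took 23386, 18020.0, 15934 and 18174 CPM of the Infl_Mono sums and 13676, 14206, 10576 and 9533 CPM of the Monocyte_1 sums, in the same order. Among the named cell types with at least 50 cells, Infl_Mono held place 1 of 11 in RTT and 1 of 10 in RTT_ROSA26, and place 2 of 9 in NTT and 2 of 12 in RTT_PTGS12KO, behind the dendritic cells named cDC2.

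Rsad2 (chr12:26442746-26456452 in GRCm38, the build of all gene positions here), which encodes viperin, an enzyme that makes a chain-terminating nucleotide, stood at 679.5 CPM (NTT), 1164 (RTT), 1021 (RTT_ROSA26) and 588 (RTT_PTGS12KO) among Infl_Mono cells. Monocyte_1 held 168, 28.1, 29.1 and 101 CPM, tumour by tumour. Every Infl_Mono value lay above every Monocyte_1 value, and the gap was widest in RTT and RTT_ROSA26. The fitted difference of Rsad2 was 3.49 ± 0.54 (SE, n = 4 tumours; 11.2-fold, adjusted p = 0.00387). It was 4.17 without NTT, 2.81 without RTT and 2.67 without the cells richest in macrophage markers. Its neighbour Cmpk2 (chr12:26469204-26479837), a mitochondrial nucleotide kinase, went from 16.9, 6.34, 12.1 and 11.5 CPM in Monocyte_1 to 114, 222, 183 and 124 CPM in Infl_Mono. The groups of Cmpk2 did not overlap either, with a difference of 3.54 ± 0.29 (SE, adjusted p = 0.000202).

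Ifit1, Ifit2 and Ifit3, which lie side by side on chromosome 19 and bind viral or unprocessed RNA, moved alike. Ifit1 was 348 CPM (NTT), 684 (RTT), 442 (RTT_ROSA26) and 306 (RTT_PTGS12KO) among Infl_Mono cells against 55.5, 25.6, 70.3 and 39.1 CPM in Monocyte_1, a difference of 3.29 ± 0.31 (SE, adjusted p = 0.000399). Ifit3 was 338, 490.0, 376 and 208 CPM against 50.8, 13.8, 50.9 and 23.1 CPM, a difference of 3.47 ± 0.34 (SE, adjusted p = 0.000443). Ifit2 differed by 3.22 ± 0.32 (SE, adjusted p = 0.000457). In these genes the difference was largest in RTT, at 4.69 for Ifit1, 4.64 for Ifit2 and 5.05 for Ifit3, and between 2.45 and 3.12 in the other tumours. The fitted differences were 2.63 for Ifit1, 2.56 for Ifit2 and 2.76 for Ifit3 without the cells richest in macrophage markers. Ifit1 and Ifit3 have close copies (Ifit1bl1 and Ifit3b), between which reads could be split, so their separate levels are uncertain.

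Isg15, a ubiquitin-like protein that is joined to other proteins during infection, was 1883 CPM (NTT), 1062 (RTT), 897 (RTT_ROSA26) and 1226 (RTT_PTGS12KO) among Infl_Mono cells. In Monocyte_1 it was 622, 189.8, 390.5 and 371 CPM, all below the lowest Infl_Mono value. The difference of Isg15 was 1.81 ± 0.18 (SE, adjusted p = 0.000457). Usp18, which removes Isg15 and dampens the type I interferon receptor, differed by 2.44 ± 0.19 (SE, adjusted p = 0.000192). Oasl1, of the oligoadenylate synthetase family, differed by 2.50 ± 0.23, and the exonuclease Isg20 by 2.47 ± 0.19. The calls of Rsad2, Cmpk2, Ifit1, Ifit2, Ifit3, Isg15, Usp18, Oasl1 and Isg20 held under each of the 16 alternatives run. The number of antiviral effectors called higher was 31 without NTT, 34 without RTT, 34 without RTT_ROSA26 and 32 without RTT_PTGS12KO.

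**Figure D2:**
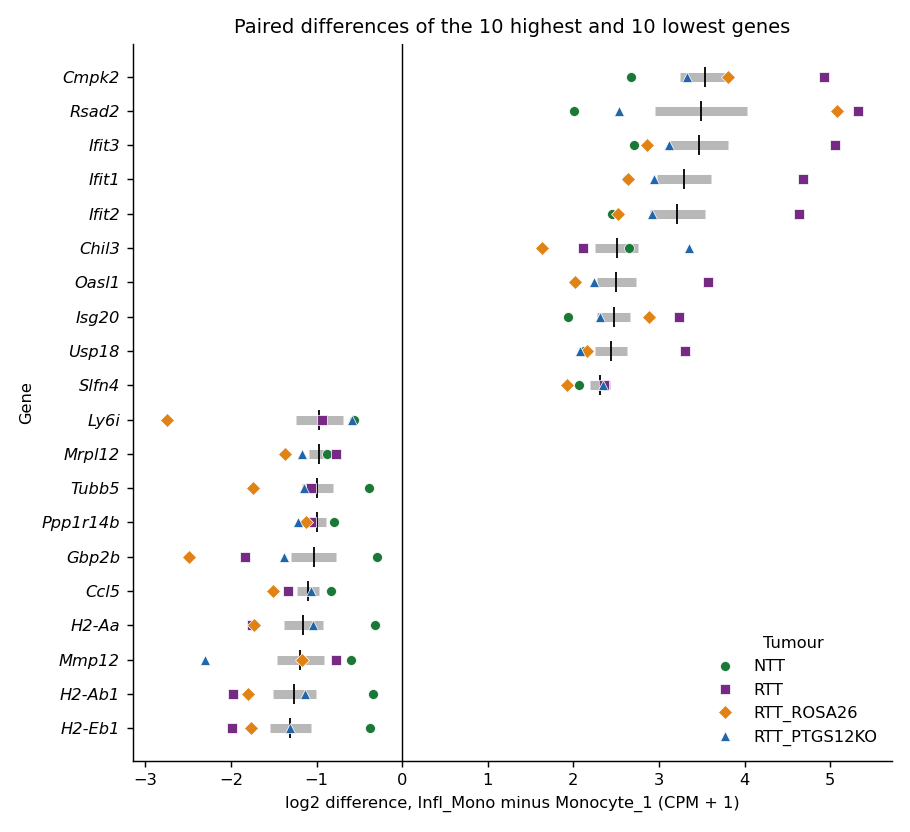
Paired log2 difference (CPM + 1) of the 10 genes with the highest and the 10 with the lowest fitted difference (horizontal axis) among called genes of at least 50 CPM with 1 sign in all tumours, in each of the 4 tumours (coloured symbols). The black tick is the fitted difference and the grey bar 1 SE on either side. Cmpk2, Rsad2 and the Ifit genes stand over 3, while the lowest genes, led by H2-Eb1 at -1.31, differ by less.

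Among innate sensors and their adaptors, most of which act on foreign RNA or DNA, many were higher as well. Of 11 tested 8 were higher (against 9.99% of all genes) and 0 lower, with a median of 0.64. Ifih1 (MDA5), a sensor of long double-stranded RNA, was 132, 133, 62.6 and 98.8 CPM in Infl_Mono and 51.5, 23.4, 38.8 and 31.6 CPM in Monocyte_1, with a difference of 1.71 ± 0.19 (SE, adjusted p = 0.000903). Ddx58 (RIG-I), which senses short RNA ends, was 109, 122, 85.2 and 77.8 CPM against 41.6, 25.9, 36.4 and 25.3 CPM and differed by 1.69 ± 0.14 (SE, adjusted p = 0.000228). In both genes every Infl_Mono sum lay above every Monocyte_1 sum. The endosomal RNA receptor Tlr7 differed by 1.04 ± 0.15 (SE, adjusted p = 0.00337). Tlr2 and Tlr4, which sense bacterial lipids, and the DNA-sensing adaptor Tmem173 (STING) did not pass the test. Sensors called higher numbered 5 without NTT, 7 without RTT, 7 without RTT_ROSA26 and 6 without RTT_PTGS12KO.

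The Ifi200 family, which encodes proteins with pyrin and HIN domains, many of them nuclear, lies in a cluster on chromosome 1. All 11 tested members were higher in Infl_Mono (against 9.99% of all genes), with a median of 1.46 and per-tumour medians of 1.32, 1.67, 0.82 and 1.59. Ifi203 was 628 CPM (NTT), 563 (RTT), 534 (RTT_ROSA26) and 743 (RTT_PTGS12KO) among Infl_Mono cells and 223, 169, 267 and 205 CPM in Monocyte_1. Its groups did not overlap, and the difference was 1.60 ± 0.14 (SE, adjusted p = 0.000271). Ifi206 differed by 1.69 ± 0.14 (SE, adjusted p = 0.000202). Ifi208 was 113, 72.2, 27.8 and 60.3 CPM against 23.1, 9.92, 29.1 and 9.51 CPM, which gave differences of 2.24, 2.75, -0.06 and 2.54. Its RTT_ROSA26 pair stood near 0 while the other pairs were over 2, and the fitted difference was 2.45 ± 0.25 (SE, adjusted p = 0.000457). Members called higher numbered 10 without NTT, 10 without RTT, 11 without RTT_ROSA26 and 10 without RTT_PTGS12KO. The genes of this family resemble each other closely, so that reads may have been split between them.

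The Schlafen family, genes on chromosome 11 that restrain cell growth and virus replication, was higher in all 6 members tested (against 9.99% of all genes), with a median of 1.91. Slfn5 was 451 CPM (NTT), 547 (RTT), 482 (RTT_ROSA26) and 489 (RTT_PTGS12KO) among Infl_Mono cells and 152, 74.1, 153 and 95.7 CPM in Monocyte_1. Every tumour showed the gap, and the difference was 2.18 ± 0.21 (SE, adjusted p = 0.000387). Slfn4, known from myeloid cells, was 182, 56.5, 76.5 and 92.6 CPM against 42.8, 10.2, 19.4 and 17.4 CPM and differed by 2.31 ± 0.11 (SE, adjusted p = 6.83e-05). Slfn9 differed by 2.22 ± 0.13 and Slfn8 by 1.64 ± 0.12. All 6 members stayed called higher without any 1 tumour, with the same limit on split reads.

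Interferon signalling genes divided. Of 22 tested 10 were higher (against 9.99% of all genes) and 0 lower, with a median of 0.31. One of the 10 was Ifnb1, whose value rested largely on 1 cell, as given below. Irf7, which drives a further round of interferon genes, was 788 CPM (NTT), 391 (RTT), 238 (RTT_ROSA26) and 358 (RTT_PTGS12KO) among Infl_Mono cells and 454, 139, 204 and 175 CPM in Monocyte_1. The groups overlapped, since both names were high in NTT, and the closest pair was that of RTT_ROSA26 at 0.23. The fitted difference of Irf7 was 0.98 ± 0.17 (SE, adjusted p = 0.00645). Without the cells richest in macrophage markers the adjusted p of Irf7 was 0.0598. Stat2, a part of the type I interferon complex, was 142, 101, 69.6 and 94.6 CPM against 74.5, 39.7, 50.9 and 49.6 CPM, a difference of 1.03 ± 0.12 (SE, adjusted p = 0.000903). The receptor chain Ifnar1 gave 0.13 ± 0.10 (SE, adjusted p = 0.418) and Ifngr1 gave 0.05 ± 0.17 (SE, adjusted p = 0.89). Irf1 gave 0.36 ± 0.11 (SE, adjusted p = 0.0622) and Irf8, a factor of monocyte and dendritic cell development, 0.08 ± 0.10 (SE, adjusted p = 0.643). Signalling genes called higher numbered 5 without NTT, 6 without RTT, 7 without RTT_ROSA26 and 2 without RTT_PTGS12KO.

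Ifnb1, the interferon beta gene, was scarce. Infl_Mono sums held 1 (NTT), 2 (RTT), 54 (RTT_ROSA26) and 11 (RTT_PTGS12KO) UMIs, and Monocyte_1 sums held 1, 2, 0 and 3. The RTT_ROSA26 value rested on 1 cell: 52 of the 54 UMIs came from a single Infl_Mono cell with 10504 UMIs in all. That cell also held 51 UMIs of Rsad2 and 37 of Cxcl10. Without it Ifnb1 in RTT_ROSA26 went from 93.9 to 3.54 CPM. The gene passed the test (adjusted p = 0.0135) and no longer did so without RTT_PTGS12KO (adjusted p = 0.0697), so nothing about interferon beta production is read from it.

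Guanylate-binding proteins and immunity-related GTPases, 2 families of GTPases known as interferon gamma targets that attack intracellular pathogens, had lower medians than the antiviral effectors. Among 9 guanylate-binding protein genes 2 were higher (0 without NTT or RTT_PTGS12KO) and 1 lower, where 9.99% and 6.1% of all genes were, with a median of 0.26 and per-tumour medians of 0.28, 0.03, -0.54 and 0.45. Gbp2 was 1029 CPM (NTT), 1253 (RTT), 965 (RTT_ROSA26) and 1856 (RTT_PTGS12KO) among Infl_Mono cells and 848, 1223, 1399 and 1137 CPM in Monocyte_1. It was higher in RTT_PTGS12KO and lower in RTT_ROSA26, and the fitted difference was 0.18 ± 0.18 (SE, adjusted p = 0.514). Gbp5 was higher by 0.70 ± 0.15 (SE, adjusted p = 0.0152), a call lost without NTT (adjusted p = 0.0801) and without RTT_PTGS12KO (0.0973). Gbp2b, whose promoter is shown above, was 174, 16.5, 6.96 and 52.5 CPM against 214, 61.4, 43.7 and 138 CPM and lower in all 4 tumours, with a fitted difference of -1.03 ± 0.26 (SE, adjusted p = 0.0295). That call was lost without RTT (adjusted p = 0.0966), RTT_ROSA26 (0.0794) or RTT_PTGS12KO (0.154). Among 8 immunity-related GTPases 4 were higher, where 9.99% of all genes were, and 0 lower (median 0.47, with per-tumour medians of 0.61, 0.07, 0.05 and 0.58), among them Ifi47 at 0.75 ± 0.10 (SE, adjusted p = 0.00235). Immunity-related GTPases called higher numbered 2 without NTT, 6 without RTT, 3 without RTT_ROSA26 and 2 without RTT_PTGS12KO. Iigp1 was 799, 339, 304 and 938 CPM against 474, 439, 376 and 567 CPM and did not pass the test (adjusted p = 0.38).

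MHC class II genes, which present peptides to CD4+ T cells, were the clearest group on the lower side. All 9 tested genes were lower in Infl_Mono in every tumour, and 6 were called lower, where 6.1% of all genes were. The median was -0.88, made up of -0.26, -1.72, -1.51 and -0.71 in NTT, RTT, RTT_ROSA26 and RTT_PTGS12KO. H2-Ab1 (chr17:34257689-34269419), the beta chain of I-A, was 5541 CPM (NTT), 1333 (RTT), 829.6 (RTT_ROSA26) and 2259 (RTT_PTGS12KO) among Infl_Mono cells. In Monocyte_1 it was 7005, 5262, 2898 and 4965 CPM. The pair in NTT was the closest, and because both names were high in NTT the groups overlapped across tumours. The fitted difference of H2-Ab1 was -1.26 ± 0.25 (SE, adjusted p = 0.0119), which is 2.39-fold higher in Monocyte_1. H2-Eb1 gave -1.31 ± 0.24 (SE, adjusted p = 0.00921), H2-Aa gave -1.16 ± 0.23 (SE, adjusted p = 0.012) and the invariant chain Cd74 gave -0.94 ± 0.25 (SE, adjusted p = 0.0355).

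Fewer MHC class II genes were called when a tumour other than NTT was left out, although the direction held. Genes of the list called lower numbered 7 without NTT, 1 without RTT, 0 without RTT_ROSA26 and 3 without RTT_PTGS12KO, and 0 were called without the tumour as block. Without RTT_ROSA26 H2-Ab1 differed by -1.11 (adjusted p = 0.0649), and without RTT by -1.01 (adjusted p = 0.0536), so that the size changed little while the call was lost. Ciita, the regulator of these genes, was 66.9, 17.3, 29.6 and 64.4 CPM in Infl_Mono and 86.8, 66.4, 41.2 and 82.2 CPM in Monocyte_1. It was lower in 4 of 4 tumours, by most in RTT (-1.88), and did not pass the test (-0.58 ± 0.22, SE, adjusted p = 0.105). The whole list took 22452, 8600.5, 5548 and 11283 CPM in Infl_Mono and 26981, 22331, 12822 and 20659.9 CPM in Monocyte_1.

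MHC class I and immunoproteasome genes, which serve presentation to CD8+ T cells, gave 2 higher and 1 lower of 21 tested, with a median of -0.02. That share is close to the 16.1% of all genes. The called genes were H2-T24 (0.89 ± 0.16, SE, adjusted p = 0.00698), the regulator Nlrc5 (0.46 ± 0.13, SE, adjusted p = 0.0456) and the peptide trimmer Erap1 (-0.47 ± 0.13, SE, adjusted p = 0.0425), and each lost its call without RTT_PTGS12KO (adjusted p = 0.0727, 0.201 and 0.168). The classical genes H2-K1 and H2-D1, and B2m, did not pass the test.

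**Figure D3:**
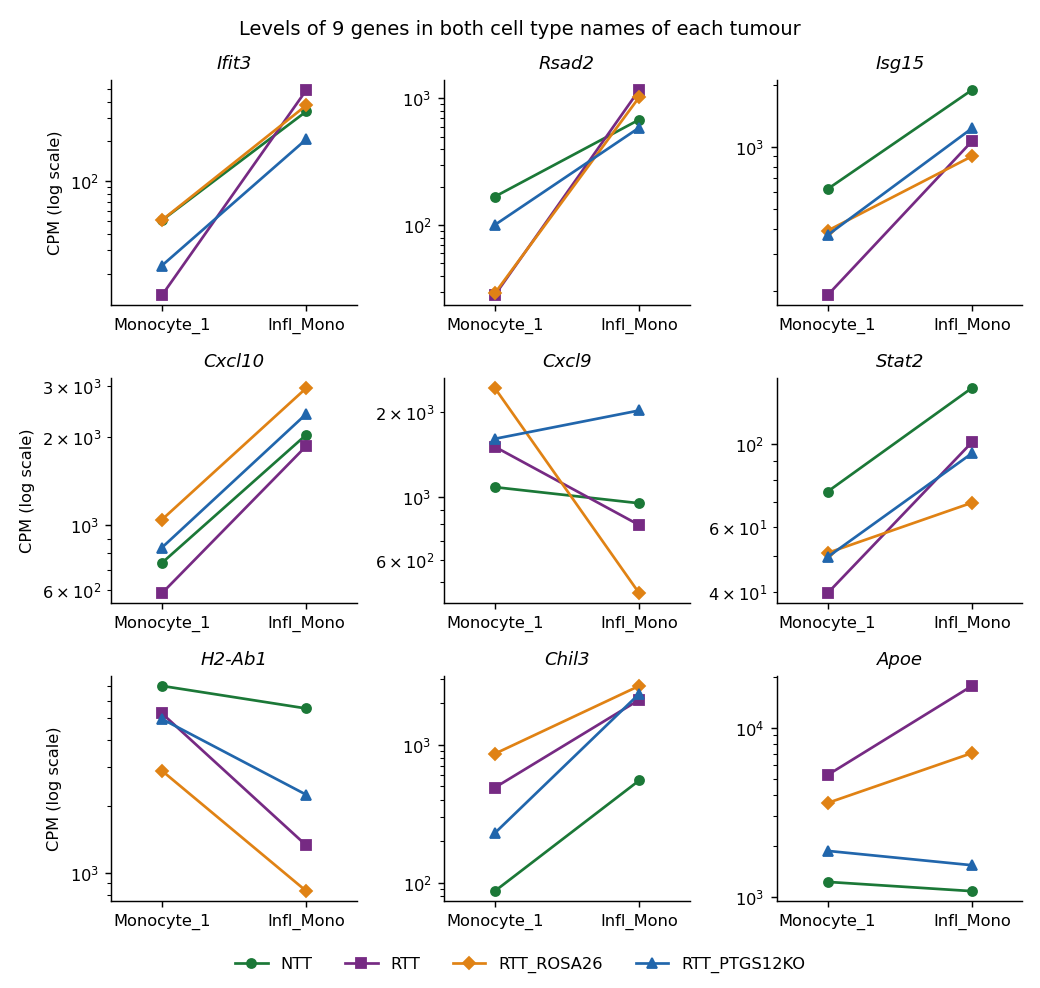
CPM (log scale) of 9 genes in Monocyte_1 and Infl_Mono of each tumour, with a line joining the pair of each tumour. All lines rise for Ifit3, Rsad2, Isg15, Cxcl10, Stat2 and Chil3 and all fall for H2-Ab1, while Cxcl9 and Apoe have lines in both directions.

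Chemokines showed no common direction. Cxcl10 (chr5:92346638-92348889), a ligand of Cxcr3 on activated T cells, was 2044 CPM (NTT), 1871 (RTT), 2957 (RTT_ROSA26) and 2410.5 (RTT_PTGS12KO) among Infl_Mono cells and 743, 585, 1045 and 838 CPM in Monocyte_1. Its lowest Infl_Mono value lay above its highest Monocyte_1 value, and the differences of 1.46, 1.68, 1.50 and 1.52 were nearly equal between tumours. They were 1.52, 1.24, 0.80 and 1.45 without the cells richest in macrophage markers. The fitted difference was 1.59 ± 0.10 (SE, 3.02-fold, adjusted p = 0.00015), and the call held under each of the 16 alternatives. Cxcl9 (chr5:92321347-92328079), another Cxcr3 ligand and a neighbour of Cxcl10, did not follow it. Cxcl9 was 951, 795, 456 and 2029 CPM in Infl_Mono and 1084, 1509, 2439.7 and 1609.8 CPM in Monocyte_1. Infl_Mono was the lower of each pair in NTT, RTT and RTT_ROSA26 and the higher in RTT_PTGS12KO, with differences of -0.19, -0.92, -2.42 and 0.33. The fitted difference of Cxcl9 was -0.70 ± 0.36 (SE, adjusted p = 0.228).

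Ccl5, a chemokine that draws T cells and monocytes, was lower in Infl_Mono of every tumour. It was 1432 CPM (NTT), 316 (RTT), 95.7 (RTT_ROSA26) and 391 (RTT_PTGS12KO) among Infl_Mono cells and 2545, 800.2, 274 and 817 CPM in Monocyte_1. The levels of both names varied between tumours and were highest in NTT. The groups overlapped across tumours although Infl_Mono was the lower of each pair. The fitted difference was -1.10 ± 0.13 (SE, adjusted p = 0.00111). Ccl4 was higher by 1.43 ± 0.27 (SE, adjusted p = 0.00964), but its call was lost without RTT (adjusted p = 0.0529) and without the cells richest in macrophage markers (0.136). Ccl12 was the single called gene of 12 monocyte-attracting and inflammatory chemokines tested, where 16.1% of all genes were called. It was higher by 1.56 ± 0.39 (SE, adjusted p = 0.0308). Its CPM was 614, 1376, 1309.6 and 545 against 307, 158, 364 and 469, and without the cells richest in macrophage markers its difference was -0.12 (adjusted p = 0.774), on the other side of 0. Ccl12 was also lost without NTT (adjusted p = 0.0598), RTT (0.0654) or RTT_ROSA26 (0.13). Of 9 chemokine receptors, Cxcr4 (0.66 ± 0.12, SE, adjusted p = 0.00912) and Ccr2 (0.38 ± 0.10, SE, adjusted p = 0.0413) were higher, where 9.99% of all genes were. The Ccr2 call was lost without any 1 tumour, with adjusted p between 0.0564 and 0.259, and that of Cxcr4 without NTT (0.08) and RTT_PTGS12KO (0.0932).

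Among 13 cytokine genes 6 were higher (against 9.99% of all genes) and 0 lower, with a median of 0.67. Il15 (a cytokine that sustains memory CD8+ T cells and NK cells) was 68.8 CPM (NTT), 25.9 (RTT), 46.96 (RTT_ROSA26) and 44.9 (RTT_PTGS12KO) among Infl_Mono cells. In Monocyte_1 it was 22.5, 5.51, 9.70 and 13.8 CPM, below every Infl_Mono value. The difference of Il15 was 1.80 ± 0.13 (SE, 3.47-fold, adjusted p = 0.000187), between 1.57 in NTT and 2.16 in RTT_ROSA26. Il18, which an inflammasome matures, was 95.6, 76.2, 88.7 and 86.00 CPM against 55.6, 35.8, 33.95 and 45.6 CPM and differed by 0.99 ± 0.11 (SE, adjusted p = 0.000781). The Il18 call held under each of the 16 alternatives and that of Il15 under the 15 in which it was tested (it lies below a minimum of 50 CPM). Osm differed by 0.73 ± 0.11 (SE, adjusted p = 0.00364). Il1b was 3280.3, 2808, 1927 and 2453 CPM against 3468, 2318, 3046 and 2438 CPM, with -0.06 ± 0.14 (SE, adjusted p = 0.841), and Tnf gave 0.76 ± 0.23 (SE, adjusted p = 0.0542), neither past the threshold. Cytokine genes called higher numbered 5 without NTT, 6 without RTT, 6 without RTT_ROSA26 and 4 without RTT_PTGS12KO.

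Costimulators and checkpoint ligands gave 4 higher and 2 lower of 14, with a median of 0.14, where 9.99% and 6.1% of all genes were. Those called lower numbered 2 without NTT, 0 without RTT, 1 without RTT_ROSA26 and 0 without RTT_PTGS12KO. Tnfsf10, the death ligand TRAIL, was 33.7, 40.05, 13.9 and 16.4 CPM in Infl_Mono and 8.63, 4.41, 2.43 and 6.36 CPM in Monocyte_1 and differed by 1.99 ± 0.24 (SE, adjusted p = 0.00111). Lgals9, or galectin-9, a ligand of Havcr2 (Tim-3), was 295, 242, 228 and 241 CPM against 159, 109.9, 116 and 131 CPM and differed by 1.01 ± 0.10 (SE, adjusted p = 0.000443). In both genes the groups did not overlap. Cd40, the receptor through which helper T cells license antigen-presenting cells, differed by 0.74 ± 0.10 (SE, adjusted p = 0.00226). Cd274 (PD-L1) gave 0.14 ± 0.10 (SE, adjusted p = 0.382). Pdcd1lg2 (PD-L2) was 69.3, 6.28, 1.74 and 22.3 CPM against 105, 19.8, 36.4 and 56.5 CPM and lower with a fitted difference of -1.04 ± 0.24 (SE, adjusted p = 0.0213). The Pdcd1lg2 call was lost without RTT (adjusted p = 0.0592) and without RTT_PTGS12KO (0.127).

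Genes of classical monocytes were higher in Infl_Mono, 12 of 21, against 1 lower (against 9.99% and 6.1% of all genes), with a median of 0.59. Vcan, the matrix proteoglycan versican, was 115, 191, 315 and 401 CPM against 41.1, 42.7, 107 and 87.7 CPM and differed by 1.92 ± 0.15 (SE, adjusted p = 0.000192). Chil3, a chitinase-like secreted protein, was 551, 2115, 2671 and 2339 CPM against 86.97, 489, 861 and 229 CPM. The groups overlapped across tumours since NTT was low in both names, but Chil3 was higher in 4 of 4 pairs, by 2.50 ± 0.25 in the fit (SE, adjusted p = 0.000457, and 0.0763 without the tumour as block). Hp (haptoglobin, which binds free haemoglobin) differed by 1.83 ± 0.24 (SE, adjusted p = 0.00176) and Plac8 by 1.12 ± 0.16 (SE, adjusted p = 0.00242).

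The Ly6 genes differed among themselves. Ly6c2, which encodes the Ly6C antigen of classical monocytes, was 3499, 791, 1059 and 2893 CPM in Infl_Mono and 2229, 539, 934 and 1342 CPM in Monocyte_1. It was higher by 0.68 ± 0.14 (SE, adjusted p = 0.0152), a call lost without NTT (adjusted p = 0.0653), RTT (0.0503) or RTT_PTGS12KO (0.0896). Ly6a (Sca-1) was 3356, 1551, 711 and 2103 CPM against 3299, 2929.7, 2161 and 2805 CPM, nearly equal in NTT and lower in the other Infl_Mono sums, with -0.66 ± 0.22 (SE, adjusted p = 0.0807). Ly6i was lower with a fitted difference of -0.97 ± 0.27 (SE, adjusted p = 0.0444), and its call was lost without NTT (0.0615), RTT (0.123) or RTT_PTGS12KO (0.0676). These genes lie in 1 cluster and are alike in sequence, so their separate levels are uncertain. Classical monocyte genes called higher numbered 9 without NTT, 10 without RTT, 9 without RTT_ROSA26 and 9 without RTT_PTGS12KO.

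Granule and alarmin genes known from neutrophils were higher in 7 of 16 (median 0.53, 0 lower, against 9.99% of all genes higher), alongside the neutrophil markers given above, whose part was not tested. Mmp8, a collagenase of neutrophil granules, was 27.99, 69.1, 53.9 and 65.05 CPM in Infl_Mono and 17.7, 36.6, 9.70 and 18.8 CPM in Monocyte_1 and differed by 1.25 ± 0.22 (SE, adjusted p = 0.00689). Cd177, a neutrophil surface protein listed here among the monocyte genes, lay between 7.78 and 40 CPM in Infl_Mono and between 0.275 and 4.85 CPM in Monocyte_1 and differed by 3.99 ± 0.29 (SE, adjusted p = 0.000192). S100a8 was 191, 497, 120.0 and 451 CPM against 119, 110.5, 272 and 117 CPM, higher in NTT, RTT and RTT_PTGS12KO and lower in RTT_ROSA26, and did not pass the test (adjusted p = 0.109). The Lcn2 call (2.31 ± 0.54, SE, adjusted p = 0.023) was lost without RTT (adjusted p = 0.0863), RTT_ROSA26 (0.0767) or RTT_PTGS12KO (0.121), and the difference was 3.55 without NTT and 1.58 without RTT_PTGS12KO. Granule and alarmin genes called higher numbered 8 without NTT, 4 without RTT, 5 without RTT_ROSA26 and 3 without RTT_PTGS12KO.

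Macrophage genes had no shared direction across tumours. Of 31 tested 0 were higher and 1 lower, where 16.1% of all genes were called, and the per-tumour medians were -0.16, 0.87, 0.10 and -0.64 in NTT, RTT, RTT_ROSA26 and RTT_PTGS12KO. When the cells richest in macrophage markers were left out 5 were called lower and 0 higher, but the cells were chosen by some of the same genes, so these values describe the cells that remain and are no test of the list. Apoe, a lipid carrier, was 1089 CPM (NTT), 17616 (RTT), 7082 (RTT_ROSA26) and 1548 (RTT_PTGS12KO) among Infl_Mono cells and 1234, 5259, 3599 and 1879 CPM in Monocyte_1. Infl_Mono was the higher of the pair in RTT and RTT_ROSA26 and the lower in NTT and RTT_PTGS12KO, and the fitted difference was 0.61 ± 0.31 (SE, adjusted p = 0.209). C1qa, of the complement C1q, was 875, 1661, 602 and 364 CPM against 979, 1474, 739.7 and 1034 CPM, with its widest gap in RTT_PTGS12KO. Without the cells richest in macrophage markers the differences were -0.27, 1.696, 0.79 and -0.19 for Apoe and -0.76, -0.95, -2.66 and -3.60 for C1qa, both among the markers by which the cells were chosen. Cd9 was the gene called lower (-0.70 ± 0.16, SE, adjusted p = 0.0211), and it lost the call without RTT (adjusted p = 0.052), RTT_ROSA26 (0.0644) or RTT_PTGS12KO (0.108). The activating Fc gamma receptor gene Fcgr4 was 730.5, 745, 339 and 528 CPM against 754, 1173, 538 and 758 CPM, lower in 4 of 4 tumours, and did not pass the test (-0.41 ± 0.13, SE, adjusted p = 0.0622).

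Prostaglandin genes were listed because the knockout removed prostaglandin synthesis from the cancer cells. Ptgs2 (COX2) was 571 CPM (NTT), 561 (RTT), 167 (RTT_ROSA26) and 459.7 (RTT_PTGS12KO) among Infl_Mono cells and 692, 371, 456 and 563 CPM in Monocyte_1. It was higher in Infl_Mono of RTT alone, and the fitted difference was -0.24 ± 0.24 (SE, adjusted p = 0.542). Ptgs1 (COX1) stayed at or below 20.4 CPM in every sum and, under the minimum of 10 CPM in the mean, was not tested. Of 10 prostaglandin and leukotriene genes tested 0 were higher and 2 lower, where 16.1% of all genes were called, and 0 were called lower when any 1 tumour was left out. Without NTT, RTT or RTT_PTGS12KO 1 was called higher. Ptger2, the EP2 receptor of prostaglandin E2, was 8.37, 8.64, 6.96 and 5.79 CPM against 11.7, 15.7, 12.1 and 11.04 CPM and lower in all 4 tumours (-0.65 ± 0.18, SE, adjusted p = 0.0411). Its call was lost without NTT (adjusted p = 0.11), RTT_ROSA26 (0.0668) or RTT_PTGS12KO (0.267). Ptger4, the EP4 receptor, was 15.9, 18.8, 20.9 and 13.2 CPM against 13.6, 7.16, 21.8 and 13.5 CPM (0.32 ± 0.20, SE, adjusted p = 0.307). Among 13 genes that respond to cyclic AMP, the second messenger of both receptors, 4 were higher, where 9.99% of all genes were, and 0 lower, with a median of 0.00. Thbs1 (thrombospondin 1) led them at 1.03 ± 0.17 (SE, adjusted p = 0.00567). Genes of this list called higher numbered 2 without NTT, 1 without RTT, 2 without RTT_ROSA26 and 1 without RTT_PTGS12KO.

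Immediate-early and heat-shock genes, which answer stress within minutes, were higher in 9 of 19 (against 9.99% of all genes), with 0 lower and a median of 0.47. Jun, a subunit of the AP-1 factor, was 420.4 CPM (NTT), 471 (RTT), 654 (RTT_ROSA26) and 429.6 (RTT_PTGS12KO) among Infl_Mono cells and 272, 255, 327 and 244 CPM in Monocyte_1. Its groups did not overlap, and the difference was 0.87 ± 0.10 (SE, adjusted p = 0.00115). The chaperone gene Hspa1a was 576, 865, 1035 and 942 CPM against 372, 563, 483 and 543 CPM and differed by 0.83 ± 0.12 (SE, adjusted p = 0.00275). Ier2 differed by 0.91 ± 0.15 (SE, adjusted p = 0.00582). Genes of this list called higher numbered 9 without NTT, 6 without RTT, 7 without RTT_ROSA26 and 5 without RTT_PTGS12KO.

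Genes on the lower side included some with roles outside immunity. Ppp1r14b, a phosphatase regulator, was 45.8 CPM (NTT), 45.5 (RTT), 53.9 (RTT_ROSA26) and 49.7 (RTT_PTGS12KO) among Infl_Mono cells and 80.1, 96.7, 119 and 117 CPM in Monocyte_1. The groups did not overlap, and the difference was -0.99 ± 0.11 (SE, adjusted p = 0.000791). Mrpl12, of the mitochondrial ribosome, was 32.1, 36.9, 31.3 and 31.9 CPM against 59.9, 63.6, 82.5 and 72.9 CPM (-0.97 ± 0.11, SE, adjusted p = 0.00111). C1qbp, listed with complement but mainly a protein of the mitochondrial matrix, was 27.5, 38.5, 34.8 and 24.7 CPM against 48.4, 62.8, 63.1 and 57.1 CPM (-0.87 ± 0.12, SE, adjusted p = 0.00222). The calls of Ppp1r14b and Mrpl12 held under each of the 16 alternatives, and that of C1qbp under the 15 in which it was tested. The tubulin gene Tubb5 was 275, 203, 141 and 216 CPM against 360.1, 426, 473 and 479.8 CPM (-0.99 ± 0.18, SE, adjusted p = 0.00931). Of 20 glycolysis and hypoxia genes 2 were lower and 0 higher, no more than the 16.1% called over all genes. They were Gapdh (-0.44 ± 0.12, SE, adjusted p = 0.0365) and Gpi1 (-0.45 ± 0.11, SE, adjusted p = 0.0273), both lost without any 1 tumour, with adjusted p up to 0.213 and 0.188 without RTT_PTGS12KO. Of 20 cell cycle genes 3 reached the minimum, and 0 were called.

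Of 8 Ms4a genes, membrane proteins with 4 passes, 6 were higher, led by Ms4a4b at 1.80 ± 0.14 (SE, adjusted p = 0.000199). Those called higher numbered 3 without NTT, 5 without RTT, 6 without RTT_ROSA26 and 3 without RTT_PTGS12KO. Of 13 adhesion genes 4 were higher, among them Emilin2, a matrix protein, at 0.74 ± 0.10 (SE, adjusted p = 0.00247), but 2 were higher without RTT_PTGS12KO. Of 7 arginine, itaconate and tryptophan genes 2 were higher and 1 lower, and without RTT_PTGS12KO 0 were higher. Nos2 (inducible nitric oxide synthase) did not pass the test (adjusted p = 0.335). Of 8 complement genes 1 was higher and 2 lower, of 7 iron genes 1 and 1, and of 5 Fc gamma receptor genes 0 and 0. Over all genes 9.99% were called higher and 6.1% lower, and in lists this short 1 or 2 calls are read no further. The plot of list medians places the Schlafen, antiviral and Ifi200 lists at the top and MHC class II at the bottom.

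**Figure D4:**
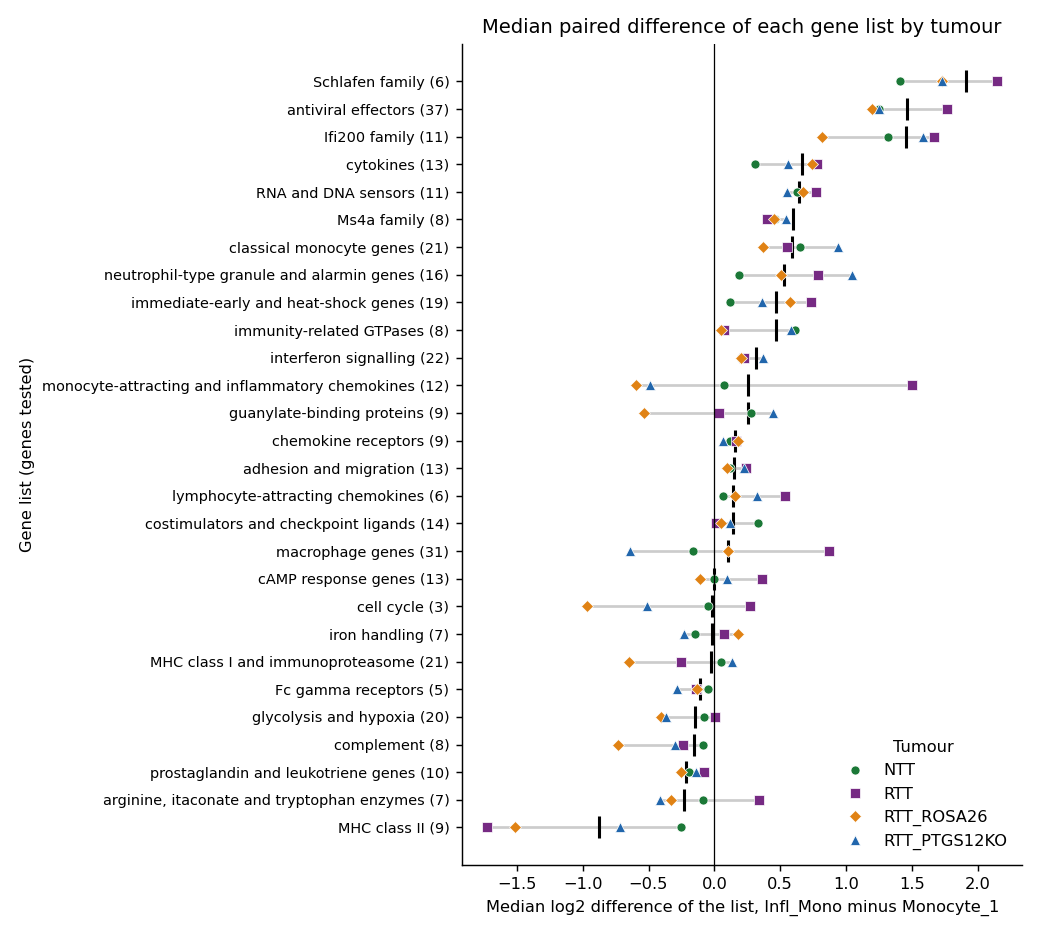
Median log2 difference of each of the 28 gene lists (horizontal axis) in each tumour (coloured symbols), with the black tick at the median of the fitted differences and the number of genes tested in brackets. The Schlafen (1.91), antiviral (1.47) and Ifi200 (1.46) lists are above 0 in every tumour and MHC class II (-0.88) below 0 in every tumour, while macrophage genes and inflammatory chemokines cross 0.

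The paired differences of the 4 tumours were alike in part. Over the 2424 tested genes with at least 50 CPM, Pearson's r between tumours ran from 0.52 (NTT and RTT_ROSA26) to 0.82 (NTT and RTT_PTGS12KO), as a description across genes that share libraries and are not independent. Genes in which tumours went opposite ways beyond counting error included Ccl8, a ligand of Ccr2 and other receptors. Ccl8 was 60.4 CPM (NTT), 522 (RTT), 167 (RTT_ROSA26) and 132 (RTT_PTGS12KO) among Infl_Mono cells and 139, 195, 14.6 and 205 CPM in Monocyte_1, with differences of -1.19, 1.41, 3.43 and -0.63. Ccl7 gave 1.11, 3.11, -0.61 and -0.27, Mrc1 (the mannose receptor) gave -0.23, 2.17, 1.23 and -0.66 and Spp1 (osteopontin) gave -0.29, 1.47, -0.78 and -0.81, in the order NTT, RTT, RTT_ROSA26 and RTT_PTGS12KO. Infl_Mono of RTT was the higher of its pair in each of these genes, as it was for the macrophage markers. When the cells richest in those markers were left out the differences were -0.41, -1.01, 0.57 and -1.51 for Ccl8, 0.90, 0.58, -3.54 and -1.42 for Ccl7, -0.60, 1.02, 0.16 and -1.58 for Mrc1 (itself one of the markers) and -0.19, 1.02, -2.84 and -1.57 for Spp1. Ccl8 of RTT was then the lower of its pair, and the RTT_ROSA26 value of Ccl8 and the RTT value of Ccl7 were much smaller. With 1 sample per group, differences between tumours carry no test.

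In single cells the names overlapped. Each cell was thinned to 5000 UMIs, which left out shallower cells (344 of the 1616 Infl_Mono cells and 991 of the 4977 Monocyte_1 cells in NTT, and 31 of 86 and 15 of 54 in RTT_ROSA26). The median Infl_Mono cell then held 111 (NTT), 86 (RTT), 74 (RTT_ROSA26) and 85 (RTT_PTGS12KO) antiviral UMIs, and the median Monocyte_1 cell 65, 66, 43 and 46. Of the Infl_Mono cells 90.3%, 69.6%, 85.5% and 96.1% lay above the Monocyte_1 median of their tumour, so RTT had the most overlap. For MHC class II the median Infl_Mono cell held 110, 24, 16 and 42 UMIs and the median Monocyte_1 cell 135, 111, 58 and 105. These are descriptions of cells and carry no test, since cells of 1 tumour are not replicates.

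**Figure D5:**
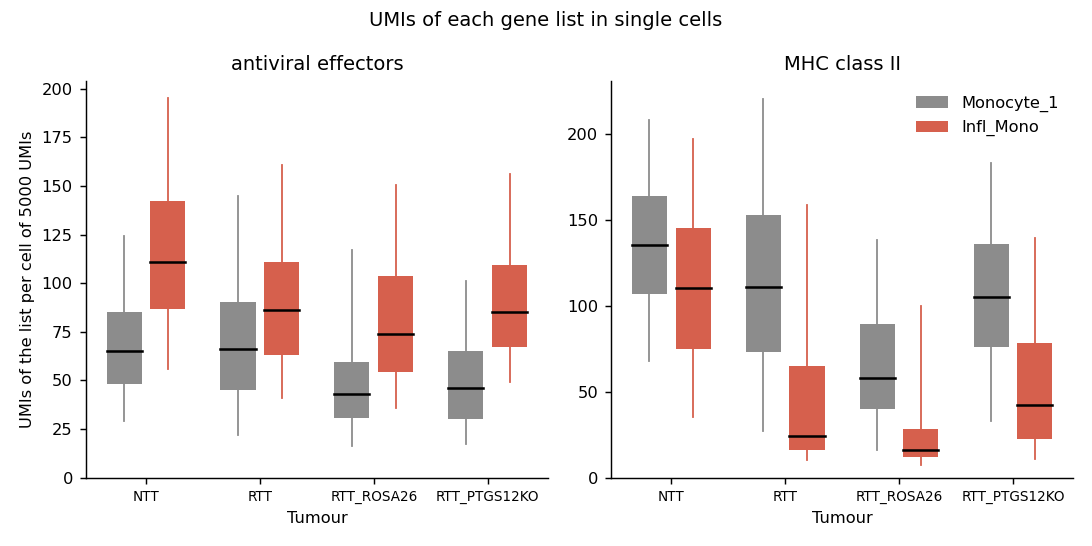
UMIs of the antiviral list (left) and of the MHC class II list (right) per cell thinned to 5000 UMIs, by tumour and name. Boxes span the quartiles, black lines mark medians and thin lines the 5th to 95th percentile of cells. Antiviral medians are higher and MHC class II medians lower in Infl_Mono of every tumour, with overlapping ranges.

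Mitochondrial and ribosomal protein genes had been left out of the matrix that was clustered and are the measures least tied to the names. Mitochondrial UMIs made up 2.29% ± 0.51 (SD, n = 4) of the Infl_Mono sums and 2.23% ± 0.38 of the Monocyte_1 sums, a paired difference of 0.057 ± 0.165 points (SD, exact permutation test, two-sided, p = 0.75). Ribosomal protein UMIs made up 19.7% ± 2.31 and 20.2% ± 1.56, a difference of -0.497 ± 2.38 points (SD, exact permutation test, p = 0.75). The median UMI count per cell was lower in Infl_Mono in 4 of 4 tumours, with a paired difference of -1145 ± 808 UMIs (SD, exact permutation test, p = 0.13, adjusted p = 0.25 over 4 measures). Thinning every cell to 5000 UMIs left 597 genes higher and 379 lower.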

How the data were processed

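CD45+ cells of 4 tumours were labelled with sample oligos, pooled, loaded 3 times and sequenced with a 10x Genomics 3' kit. The deposited UMI counts are raw counts per gene and cell, made by the authors with Cell Ranger on mm10 and Seurat 4.3.0. The stated cell filter (more than 1000 genes, less than 15% of UMIs mitochondrial, less than 40% ribosomal) was met by every cell, and the deposited cell type names were used. Doublets between tumours carry both oligos. Those within a tumour were addressed by an alternative without the top 5% of cells by UMIs.

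UMI counts were summed per tumour and name (8 sums) and tested with edgeR 4.0.16 in R 4.3.3 (TMM factors, quasi-likelihood test, the tumour as block, Benjamini-Hochberg adjustment) over 6409 of 32285 genes with a mean of at least 10 CPM. The pairing comes from the tumour itself, which both sums of a pair share. Differences per tumour used CPM plus a pseudocount of 1. DESeq2 1.42.0 was an alternative. Tables and figures used Python 3.11.15. On simulated counts for this comparison (6409 genes), 99% of genes changed by a log2 of 1 and 100% of those changed by 2 were called, and 4 of 6209 unchanged genes. These counts had the same dispersion in every gene and the same change in every tumour. The differences in the data varied between tumours, so these rates need not hold for them. The study compared cell types with a rank test over cells, which treats cells as replicates, so sums were used. Exact intervals around differences within a tumour cover counting error only. Where nothing says that samples came from separate cultures or animals, p-values measure the spread between these 4 samples.

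Genes named are the 10 highest and 10 lowest called genes of at least 50 CPM with 1 sign in all tumours, a fixed set of study and pathway genes, up to 4 called members per direction of each of 28 gene lists, and the 10 genes with the widest range over tumours. Some genes of these sets are not reported here. Members named as not passing were chosen after their values were seen. Members and lists were chosen with earlier results of these data known, and the lists' counts are no independent support. Gene positions are from GENCODE on GRCm38, and promoter sequences from RefSeq on GRCm38.p6.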

Additional observations from a re-analysis of the deposited data

Results flagged for a closer look

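Of 160 results with 4 paired differences that were examined, 9 (5.63%) had 1 tumour far from the other tumours by Dixon's ratio, and chance alone sets apart about 1 in 20. RTT stood apart in 5 of them: its difference was 4.69 for Ifit1 (2.63 to 2.94 in the other tumours), 3.57 for Oasl1, 3.30 for Usp18 and -1.88 for Ciita, and the median of the antiviral list was 1.77 (1.20 to 1.25 in the other tumours). In RTT the Infl_Mono cells also held 29373 CPM of macrophage markers, and the part of that in these values was not tested. RTT_ROSA26, the tumour with the fewest of these cells, stood apart for Ly6i at -2.75 and for the share of ribosomal protein UMIs, which was 3.03 points higher in Infl_Mono there and lower in the other tumours. RTT_PTGS12KO stood apart in the median of the interferon signalling list at 0.37, and NTT for the heat-shock gene Hspa1b at 0.50.

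For 17 named genes the difference lay above 0 in 1 or more tumours and below 0 in 1 or more others by more than counting error. Each group is 1 sample, so the difference between tumours was not tested. Infl_Mono was highest against Monocyte_1 in RTT and lowest in RTT_PTGS12KO for Apoe (1.74 and -0.28), C1qa (0.17 and -1.50), Spp1 (1.47 and -0.81), Mrc1 (2.17 and -0.66), Stab1 (1.85 and -0.96) and Ptgs1 (1.44 and -0.91). It was highest in RTT and lowest in RTT_ROSA26 for Ptgs2 (0.59 and -1.44), Il1b (0.28 and -0.66), S100a8 (2.16 and -1.17) and Ccl7 (3.11 and -0.61). It was highest in RTT_PTGS12KO and lowest in RTT_ROSA26 for Cxcl9 (0.33 and -2.42), Gbp2 (0.71 and -0.54) and F830016B08Rik (1.29 and -1.99). The other pairs were Iigp1 (0.75 in NTT and -0.37 in RTT), Ly6a (0.024 in NTT and -1.60 in RTT_ROSA26), Ifngr1 (0.85 in RTT_ROSA26 and -0.30 in NTT) and Ccl8 (3.43 in RTT_ROSA26 and -1.19 in NTT). Without the cells richest in macrophage markers, 14 of the 17 genes kept both signs, while C1qa (one of the markers by which the cells were chosen) in RTT (-0.95), Stab1 in RTT (-0.15) and Ly6a in NTT (-0.057) fell below 0. Ccl8 in RTT_ROSA26 then stood at 0.57, Ccl7 in RTT at 0.58 and Ptgs1 in RTT at 0.076.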

How the results depend on the processing

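Of the named genes 100 were called, and over the 16 alternatives they gave 1558 values, of which 1274 kept direction and call, 283 kept the direction and lost the call, and 1 reversed. No gene called as reported was called in the opposite direction under any of the 16. The reversals came without the 25% of cells richest in macrophage markers, where Ccl12 went to -0.12. Ccl8, which was not called as reported, went to -0.86 there and was called lower. Without the tumour as block 54 of the 100 lost the call and 46 kept it. The counts of genes higher and lower (640 and 391 as reported) were 270 and 74 without the tumour as block, 990 and 634 with no minimum CPM, 326 and 237 with a minimum of 50 CPM, and 425 and 197, 341 and 86, and 346 and 83 with the cells of load 1, 2 or 3 alone. Without 1 tumour they ran from 274 to 507 and from 45 to 223, fewest without RTT_PTGS12KO. Fewer genes or cells enter under a higher minimum, a single load or fewer tumours, and the cause was otherwise not tested.

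List medians moved by more than their spread over tumours in these cases. With no minimum they were -0.63 for lymphocyte-attracting chemokines, 0.35 for chemokine receptors and 0.054 for prostaglandin genes. With a minimum of 50 CPM they were 1.596 for Schlafen genes, 0.048 for chemokine receptors, -0.32 for prostaglandin genes, 0.30 for cAMP response genes and 0.47 for Ms4a genes. Without 1 tumour, chemokine receptors ran from 0.027 to 0.28 and prostaglandin genes from -0.26 to -0.0808. Thinned cells gave 0.25 for chemokine receptors and 0.50 for Ms4a genes, and leaving out the top 5% of cells by UMIs gave 0.48 for Ms4a genes. Load 1 gave -0.21 for Fc gamma receptors, -0.10 for prostaglandin genes and 0.48 for Ms4a genes. Load 2 gave 0.075 for chemokine receptors and -0.10 for prostaglandin genes, and load 3 gave 0.74 for sensors, 0.022 for chemokine receptors and 0.66 for Ms4a genes. Without the cells richest in macrophage markers, iron genes gave -0.35 and Ms4a genes 0.49. In each case the cause was not tested.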
